A study of Saccharomyces cerevisiae with 9 samples.

Results

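Wild-type yeast of the SK1 strain was compared in sporulation medium (SPO) and in rich medium (YPD) with 5 of the 9 arrays of the series, 3 from SPO and 2 from YPD. The genes were all Saccharomyces cerevisiae probe sets that the array's annotation names, which are 5359 of the 9676 probe sets in the table and stand for 5311 genes. SK1 is a laboratory strain that is widely used for its efficient sporulation. The YPD cells (yeast extract, peptone and dextrose) were growing vegetatively. The SPO cells had been moved from YPD to 1% potassium acetate and sampled after 4 h. Both groups carry the genotype wild type (WT), and the labels name no deletion, transgene or drug for them. The other 4 arrays are of ime4-/- cells in the same media. They enter only the estimate of the spread, the choice of the brightest set per gene, the values given for IME4 and mating-type genes, and the comparison of genotypes in the closing section. Total RNA was extracted with Trizol, and 600 ng of it was labelled with biotin and hybridized to Affymetrix arrays. The labels call the arrays biological replicates. The sources used here do not give the ploidy, the mating type, the cell density in YPD or the share of cells that went on to sporulate. The wild-type label was checked against IME4 itself, which read 5.35 and 5.35 in YPD and 7.14, 7.13 and 7.10 in SPO on these arrays, against 2.29 and 2.43 in YPD and 2.54 and 2.14 in SPO on the ime4-/- arrays. SPO differs from YPD in its carbon source and in its other nutrients, and the effects of these cannot be told apart in this comparison.

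Yeast that has glucose ferments it and represses the genes of respiration, of other carbon sources and of storage. When glucose is gone and only a carbon source such as acetate remains, cells respire it, pass it through the glyoxylate cycle, make sugar from it by gluconeogenesis, and stop investing in ribosomes. Starvation for nitrogen in addition releases genes for scavenging and autophagy, and in diploid cells the 2 signals together switch on IME1. Ime1 activates the early meiotic genes, among them the kinase gene IME2, and Ndt80 later activates the middle genes of the meiotic divisions and spore formation.

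Levels are given as log2 of the deposited linear intensity, per array, and differences as the log2 difference of SPO minus YPD, in which 1 is a doubling. A gene is said to have risen or fallen where limma's test over all 9 arrays, adjusted by the Benjamini-Hochberg method over the 5359 probe sets, was under 0.05. The median standard error (SE) of a difference was 0.0586 log2. The level that probe sets of another species on the same array reached (their 95th percentile, log2 3.04 to 3.27 on these 5 arrays) served as background. Within a medium, any 2 arrays had a correlation over genes between 0.9981 and 0.9986. The YPD arrays had medians of 7.75 and 7.73 over the tested sets and the SPO arrays of 7.85, 7.86 and 7.83. The authors' normalization brings the arrays to a common scale, so a change of all transcripts together would not show. In such bulk samples fewer cells of a kind and less RNA per cell cannot be told apart.

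Most of the transcriptome differed between the media. Of 5359 probe sets 2511 (46.9%) rose and 2310 (43.1%) fell, together 90.0%, and 538 did not pass the threshold. With so many calls a count of genes that rose or fell says little, and the counts below are mostly of genes that passed the threshold with a difference of at least 2-fold. These were 1183 sets that were higher in SPO (22.1%) and 1133 that were lower (21.1%), and the share of a gene group is read against these shares. The counts take the fitted difference, also for sets at background in 1 medium. For some of these the lower bound is under 2-fold, as for RRT12 (at least 1.45-fold). The median difference over all sets was 0.05. The 2 directions differed in the size of their extremes. At least 8-fold higher were 196 sets, and at least 8-fold lower 111, while at least 16-fold it was 87 against 9. At least 32-fold higher were 48 sets and 64-fold 27, and no set fell that far. These sizes are fitted with no offset, also from levels at or near background. With an offset of 16 added to the intensity, ADR1 went from 4.50 to 3.62 and AAH1 from -3.90 to -3.54. How far such levels shaped the counts was not tested.

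The 15 largest rises were mostly in genes for the use of acetate, fatty acids and ethanol. RGI2 (YIL057C), a gene of energy metabolism under respiration, read 2.81 and 2.32 in YPD and 13.04, 13.09 and 13.05 in SPO. Both YPD arrays were at background and the 3 SPO arrays far above it, which makes the difference at least 902-fold (adjusted p = 3.15e-12). The acetate transporter gene ADY2 (YCR010C) read 3.52 and 3.26 in YPD and 12.19, 12.24 and 12.28 in SPO, and the mitochondrial carnitine carrier gene CRC1 (YOR100C) 3.64 and 3.47 and 12.23, 12.17 and 12.22. Their groups lay more than 8 log2 units apart, with 1 of the 2 YPD arrays of ADY2 above background and both of CRC1. YLR012C, which has a systematic name only, read 3.81 and 4.00 in YPD and 12.36, 12.41 and 12.41 in SPO (360.0-fold, adjusted p = 1.97e-13). The peroxisomal genes POX1 (acyl-CoA oxidase), CTA1 (catalase) and POT1 (3-ketoacyl-CoA thiolase) rose by 8.31, 8.23 and 7.62, POX1 from background on both YPD arrays (at least 169-fold). SPG4, a gene needed for survival in stationary phase, rose by 8.13, and FDH1, formate dehydrogenase, by 8.07. SFC1, the carrier that exchanges succinate for fumarate across the mitochondrial membrane, rose by 7.98, the glyoxylate cycle genes ICL1 (isocitrate lyase) and MLS1 (malate synthase) by 7.54 and 7.50, and the ethanol-oxidising alcohol dehydrogenase gene ADH2 by 7.50. The glucose transporter gene HXT5 and REG2, a regulatory subunit of the phosphatase Glc7, closed the list with 7.45 and 7.04.

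The 15 largest falls were mostly in genes that make ribosomes. NOP1 (YDL014W), the fibrillarin that methylates ribosomal RNA, read 11.46 and 11.49 in YPD and 6.55, 6.54 and 6.49 in SPO. All 5 arrays stayed above background, so that the 30.8-fold difference is measured on both sides (adjusted p = 1.26e-12). NIP7 (YPL211W), a factor of 60S assembly, read 10.15 and 10.19 and 5.89, 5.96 and 5.84. NSR1 (YGR159C), nucleolin, read 10.87 and 10.78 and 6.72, 6.60 and 6.76. In each case the lowest YPD array lay over 4 units above the highest SPO array. NOP13, SNU13 (a box C/D snoRNP protein) and RLP24 (a 60S assembly factor) fell by 4.09, 3.84 and 3.82. The ribosomal protein genes RPL6B, RPS0B, RPL13A and RPS9A fell by 4.04, 4.00, 3.91 and 3.90, and RMT2, which methylates a ribosomal protein, by 3.83. Genes outside the ribosome were URA7, CTP synthase (10.21 and 10.13 in YPD and 6.09, 5.97 and 5.81 in SPO), ELO2, a fatty acid elongase (10.02 and 10.12 and 6.06, 5.88 and 5.92), AAH1, adenine deaminase (a fall of 3.90), and INA1 (a fall of 4.05). No array of one medium overlapped with the other for any of the 30 leading genes, since this was a condition for the list.

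**Figure D1:**
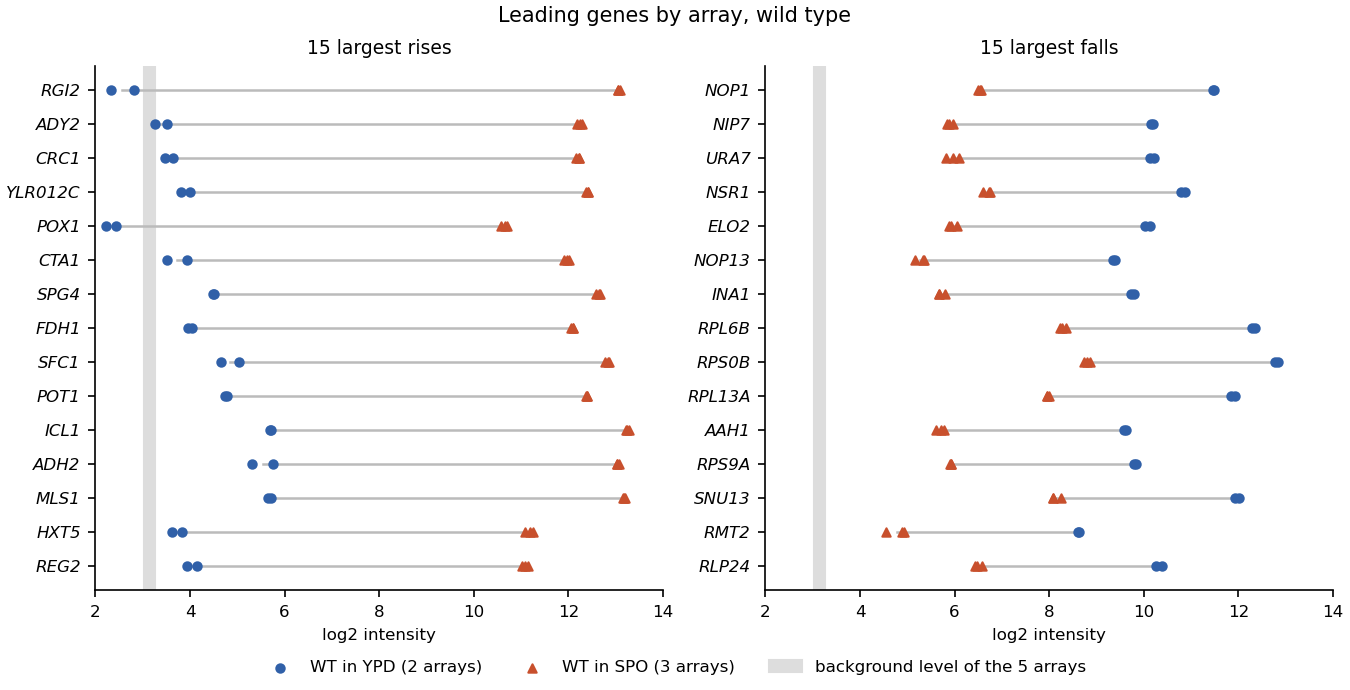
Log2 intensity of the 15 genes with the largest rises (left) and the 15 with the largest falls (right) on each wild-type array, with circles for YPD (n = 2), triangles for SPO (n = 3), grey lines between the group means and a grey band for the background level. RGI2 and POX1 start from background in YPD, whereas none of the falling genes reaches background in SPO.

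The switch of carbon source was read from its regulators to its enzymes. Of 22 genes of glucose sensing and repression 6 were at least 2-fold higher and 4 lower, near the background shares. SIP2 (a subunit of the Snf1 kinase) and SNF3 (the sensor of low glucose) rose by 3.10 and 2.61. STD1 and MIG2, a regulator of glucose-induced genes and a glucose-dependent repressor, fell by 2.30 and 1.89. SNF4, the activating subunit of Snf1, fell by 1.19, and TOS3, a kinase that activates Snf1, by 1.00. Among 18 activators of respiratory growth 8 were at least 2-fold higher and none lower. CAT8, the activator of gluconeogenic genes, read 4.00 and 4.10 in YPD and 9.56, 9.58 and 9.59 in SPO, its partner SIP4 4.14 and 3.81 and 9.36, 9.44 and 9.40, and ADR1, which activates ADH2 and peroxisomal genes, 4.05 and 4.22 and 8.60, 8.64 and 8.66. All 3 stood near 4 in YPD and between 8.6 and 9.59 in SPO, differences of 46.0-, 43.1- and 22.6-fold. PIP2, which activates the beta-oxidation genes, rose by 2.74, and GSM1 by 2.39. HAP4, the regulatory subunit of the activator of respiratory genes, rose by 0.96, HAP2 by 0.95 and HAP3 by 0.41, while HAP5 of the same complex fell by 0.61.

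The lists of genes that bring acetate to acetyl-CoA and on to sugar had some of the highest medians of the 81 lists examined. Of 7 genes of acetate uptake and activation 6 were at least 2-fold higher, with a median over the list of 4.72. The carboxylate transporter gene JEN1 rose by 6.61, ATO2 by 5.36 and ATO3 by 4.29. ACS1, the acetyl-CoA synthetase of glucose-free growth, read 7.41 and 7.43 in YPD and 12.11, 12.12 and 12.18 in SPO, whereas ACS2, the form used with glucose, read 11.36 and 11.33 and 11.46, 11.46 and 11.46. ACS2 differed by 0.11 and did not pass the threshold (adjusted p = 0.0546). Of 13 genes of the glyoxylate cycle and gluconeogenesis 11 were at least 2-fold higher and 1 lower (median 4.85). FBP1 and PCK1, which encode the fructose bisphosphatase and the phosphoenolpyruvate carboxykinase of gluconeogenesis, rose by 6.62 and 6.37. The cytosolic enzymes IDP2 (isocitrate dehydrogenase) and MDH2 (malate dehydrogenase) rose by 6.55 and 4.85. MAE1, the malic enzyme that makes pyruvate in mitochondria, was the exception and fell by 1.77. The ubiquitin ligase that destroys gluconeogenic enzymes when glucose returns was also higher, with 7 of 9 genes at least 2-fold up. UBC8, its ubiquitin-conjugating enzyme, rose by 3.41, and the subunit genes RMD5 and FYV10 by 2.52 and 2.37. VID22, a further gene named for vacuolar import and degradation, fell by 0.27.

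Acetyl units cross membranes as acetylcarnitine, and 5 of the 6 genes of this shuttle were at least 2-fold higher. The carnitine acetyltransferase genes YAT2, YAT1 and CAT2 rose by 6.98, 6.87 and 5.55, and the plasma membrane carnitine transporter gene AGP2 by 4.6. The choline transporter gene HNM1 was the member that did not pass (0.08, adjusted p = 0.284). In the tricarboxylic acid cycle all 17 measured genes rose, 13 of them at least 2-fold. CIT3, the mitochondrial citrate and methylcitrate synthase, was far ahead with 5.98. The 4 succinate dehydrogenase genes SDH1, SDH2, SDH3 and SDH4 lay close to each other, between 2.01 and 2.43. The subunits of the other enzymes rose by 0.69 (LSC1, succinyl-CoA ligase) to 1.86 (KGD1, oxoglutarate dehydrogenase), and LPD1, the subunit shared with pyruvate dehydrogenase, by 0.12. The call of LPD1 was lost with centring of the arrays on their medians.

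Glycolysis genes moved in both directions. Of 22 genes of glycolysis and fermentation 5 were at least 2-fold higher and 4 lower, near the background shares. To some extent 15 of the 22 fell, beside 43.1% of all sets. The median difference was -0.33, while the median level of the list read 11.84 and 11.78 in YPD and 12.27, 12.28 and 12.31 in SPO. GLK1, the glucokinase, read 8.84 and 8.85 in YPD and 12.02, 12.02 and 12.07 in SPO. PFK26, which makes the regulator fructose 2,6-bisphosphate, rose by 2.08, TDH1 by 1.67 and PYK2, the minor pyruvate kinase, by 1.55. At the other end PDC5 and PDC1, the pyruvate decarboxylases of fermentation, fell by 2.98 and 1.38, and the phosphofructokinase genes PFK1 and PFK2 by 1.26 and 1.04. Among 14 hexose transporters HXT5 was 1 of 3 at least 2-fold higher, beside HXT17 (1.2) and HXT13 (1.05, with 1 of 2 YPD arrays above background). HXT4 read 10.23 and 10.16 in YPD and 7.06, 6.89 and 6.90 in SPO, and HXT3 10.08 and 10.16 and 7.71, 7.54 and 7.48. HXT1 did not pass the threshold (-0.05, adjusted p = 0.631). Members of the HXT family are similar in sequence, and cross-hybridization between their probe sets was not tested.

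The pentose phosphate pathway showed 2 sets of enzymes that moved apart. NQM1 (transaldolase), TKL2 (transketolase), SOL4 (6-phosphogluconolactonase) and GND2 (6-phosphogluconate dehydrogenase) rose by 5.15, 3.14, 3.09 and 3.02. Their counterparts TAL1, SOL3 and GND1 fell by 0.84, 2.20 and 2.04, SHB17, which feeds carbon into ribose synthesis, by 2.72, and RPE1, the epimerase of ribulose 5-phosphate, by 1.26. The median over the 12 genes was 0.07, a value near 0 that turned negative with median centring and without the dimmest 25% of sets. Of 14 alcohol and aldehyde dehydrogenase genes 6 were at least 2-fold higher. The mitochondrial ALD4 and the cytosolic ALD3 rose by 3.51 and 3.52, and ADH4 and ALD5 fell by 1.14 and 1.52. In glycerol metabolism the genes of use, GUT1 (kinase) and GUT2 (mitochondrial dehydrogenase), rose by 3.01 and 3.35, and the importer gene STL1 left background (2.77 and 2.46 in YPD, 5.90, 5.83 and 5.81 in SPO). GPP1, a phosphatase of glycerol synthesis, fell by 1.86.

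Storage carbohydrate genes rose for both synthesis and breakdown. Of 7 trehalose genes 6 and of 16 glycogen genes 14 were at least 2-fold higher. The trehalose synthase genes TPS1, TPS2 and TSL1 rose by 1.73, 1.15 and 2.14, and the trehalase genes ATH1, NTH1 and NTH2 by 3.10, 1.45 and 2.99. On the glycogen side GSY1 and GSY2 (synthases) rose by 2.21 and 2.03, GLC3 (branching) by 1.89, GDB1 (debranching) by 3.19, GPH1 (phosphorylase) by 1.46, and SGA1, a glucoamylase of sporulating cells, by 2.35. The 2 phosphoglucomutase genes parted. PGM2 read 8.68 and 8.74 in YPD and 11.39, 11.41 and 11.46 in SPO, and PGM1 8.39 and 8.35 and 6.15, 5.98 and 6.07.

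Peroxisomes break down fatty acids in yeast, and 15 of 17 beta-oxidation genes were at least 2-fold higher (median 3.70). ECI1 and DCI1 (isomerases of unsaturated chains) rose by 5.14 and 4.73, SPS19, a dienoyl-CoA reductase first found as a sporulation gene, by 4.80, FOX2 (the multifunctional enzyme) by 4.29, and the fatty acyl-CoA importer genes PXA1 and PXA2 by 3.36 and 3.05. FAA4, an acyl-CoA synthetase, fell by 1.35, and ANT1, the peroxisomal ATP carrier, did not pass (-0.02, adjusted p = 0.765). The list of organelle biogenesis moved less, with 16 of 26 genes at least 2-fold higher and a median of 1.53. PEX18, a co-receptor for import by a peroxisomal signal, read 3.25 and 3.15 in YPD, where 1 array was above background, and 8.99, 9.04 and 9.04 in SPO, and its relative PEX21 rose by 2.34. PEX11, which promotes peroxisome division, rose by 2.53, and the pexophagy receptor gene ATG36 went from background to 8.11, 8.05 and 8.10 (at least 28.7-fold).

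Mitochondrial genes went in opposite directions by function. All 29 genes of the respiratory complexes II to IV and cytochrome c rose, 14 at least 2-fold, and 16 of 17 ATP synthase genes rose, 3 at least 2-fold. The medians were 1.00 and 0.53. NDE2, an external NADH dehydrogenase, rose by 6.45 against 0.59 for its relative NDE1. COX5B, the oxygen-poor form of cytochrome oxidase subunit V, rose by 3.43 against 0.74 for COX5A. CYC7, the minor cytochrome c, rose by 2.35 against 0.72 for CYC1. CYB2, the lactate dehydrogenase that feeds cytochrome c, rose by 3.32. The rises in the respiratory list ran from 0.52 (QCR6) to 6.45, and COX4 and QCR7, subunits of complexes IV and III, were near its lower end with 0.59 and 0.60.

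By contrast 18 of 41 large subunit and 16 of 32 small subunit genes of the mitochondrial ribosome were at least 2-fold lower and none at least 2-fold higher. The median of the large subunit genes read 9.67 and 9.74 in YPD and 8.59, 8.56 and 8.54 in SPO. The largest falls were in MRPL19 (2.10), MRPL13 (1.95), MRPS8 (2.20) and MRP4 (1.97), and MRPL25 and RSM10 rose by 0.51 and 0.38. Protein import genes fell likewise, with 15 of 35 at least 2-fold lower and 1 higher. TOM20 and TOM5, a receptor and a small subunit of the outer membrane translocase, fell by 2.27 and 2.10. ERV1, the sulfhydryl oxidase of the intermembrane space, rose by 1.08. Of 13 mitochondrial aminoacyl-tRNA synthetase genes 6 were at least 2-fold lower, NAM2 (leucine) by 1.32. Both mitochondrial and cytosolic ribosomal genes were thus lower in SPO, the former by less (medians -0.93 and -0.94 against -2.05 and -2.03), a difference for which no test was made.

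**Figure D2:**
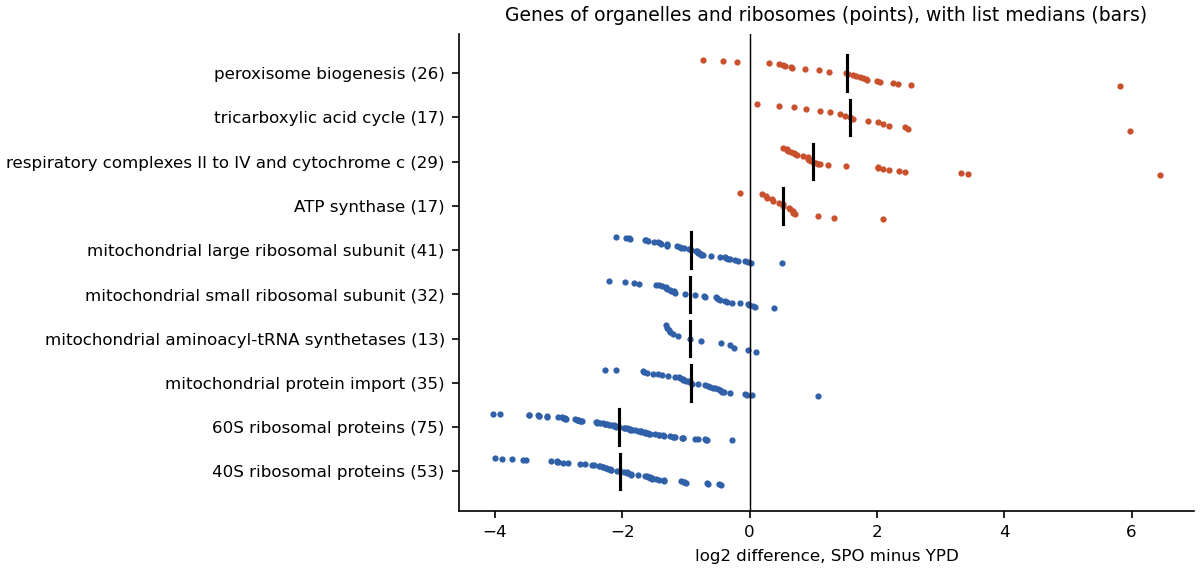
Log2 difference of SPO minus YPD for each measured gene of 10 groups (points, sorted within a group, number of genes in brackets) with the median as a black bar, in red where the median is above 0 and in blue where it is below. Genes of respiration lie right of 0 and genes of the mitochondrial ribosome and import mostly left of it, between the respiratory and the cytosolic ribosomal genes.

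Among 27 mitochondrial carrier genes 9 were at least 2-fold higher and 4 lower. After CRC1 and SFC1, AAC1 (a minor ADP/ATP carrier) rose most, by 3.37, and ODC1 (oxodicarboxylates) by 2.70. AAC3, the ADP/ATP carrier of low oxygen, read 8.20 and 8.21 in YPD and 5.67, 5.52 and 5.49 in SPO. FLX1 (flavin), RIM2 (pyrimidine nucleotides) and GGC1 (guanine nucleotides) fell by 2.23, 1.53 and 1.19. Of the 10 coenzyme Q genes COQ4 and COQ9 rose by 1.46 and 1.16 and the first enzymes of the chain, COQ1 and COQ2, fell by 0.61 and 0.87.

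The growth machinery fell as a block. Each of the 75 measured genes of 60S proteins and each of the 53 of 40S proteins fell, 69 and 48 of them at least 2-fold. The median member of the 60S list read 12.56 and 12.61 in YPD and 10.57, 10.56 and 10.49 in SPO. Within these lists the falls ran from 0.28 (RPL15B) to 4.04 (RPL6B) and from 0.44 (RPS20) to 4.00 (RPS0B). RPL40A and RPS31, which are made as fusions with ubiquitin, were among the smaller falls, with 0.66 and 0.66. Many of these genes have a near-identical copy, and how far their probe sets read the copy was not tested.

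The lists of assembly factors had lower medians than those of the proteins they assemble. In the small subunit processome and snoRNP list 48 of 53 genes were at least 2-fold lower (median -2.58) and in the large subunit assembly list 56 of 63 (median -2.54). These medians stand beside -2.05 and -2.03 for the ribosomal proteins, and the difference was not tested. EMG1, a methyltransferase of 18S RNA, fell by 3.72. DBP2, an RNA helicase, fell by 3.79. The partners of NOP1 in the box C/D particles, NOP56 and NOP58, fell by 0.76 and 0.71, and CBF5, the pseudouridine synthase, by 0.45, against 4.95 for NOP1. Of the large subunit factors REA1, the ATPase that strips factors from the particle, and RSA1, a factor of snoRNP assembly, rose, by 0.36 and 0.68.

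Polymerase genes were mostly lower, with exceptions that differed between the 3 enzymes. Of 16 RNA polymerase I genes 9 were at least 2-fold lower. RPA49 read 9.63 and 9.79 in YPD and 5.83, 5.99 and 5.86 in SPO, and RPA135, RPA12, RPC40, RPC19 and RPA190 fell by 2.73 to 3.69. The initiation factor genes RRN3, RRN9 and RRN11 fell by 0.51 to 0.64, and RRN5, RRN7 and RRN10 rose by 0.59, 0.47 and 0.73, a call that RRN7 lost with quantile normalization. For RNA polymerase III 9 of 20 genes were at least 2-fold lower and 4 higher. The 9 lower ones were subunits of the enzyme, led by RPC17 (2.93) and RPC31 (2.81). The 4 higher ones were MAF1, its repressor, which read 7.97 and 7.94 in YPD and 10.03, 9.93 and 10.05 in SPO, and the initiation factor genes TFC3 (1.23), BDP1 (1.14) and BRF1 (1.03). In RNA polymerase II 7 of 12 genes were at least 2-fold lower. RPB5, RPO26, RPB8, RPB10 and RPC10, which the 3 enzymes share, fell by 1.43 to 2.70, and RPO21 and RPB2, the largest subunits, by 0.73 and 0.61. RPB4, a dissociable subunit, rose by 0.28.

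Translation genes fell with few exceptions. All 21 cytosolic aminoacyl-tRNA synthetase genes fell, 19 at least 2-fold, from 0.90 (DPS1, aspartate) to 2.86 (WRS1, tryptophan). Of 37 genes of initiation and elongation 27 were at least 2-fold lower and 1 higher. TIF4631 (eIF4G) and RPG1 (an eIF3 subunit) fell by 2.69 and 2.66. The single gene that was higher was HEF3, a second gene for elongation factor 3, which read 5.50 and 5.38 in YPD and 9.58, 9.72 and 9.69 in SPO. YEF3, the main gene for this factor, read 13.13 and 13.11 and 11.14, 11.10 and 11.24.

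Nucleotide synthesis fell with it. In the purine list 14 of 19 genes were at least 2-fold lower and 2 higher, and in the pyrimidine list 8 of 15 and 2. After AAH1 the largest purine falls were APT1 (adenine salvage, 3.70), IMD4 (3.58) and HPT1 (hypoxanthine and guanine salvage, 3.36). IMD2, an IMP dehydrogenase gene that is induced when guanine nucleotides are short, rose by 1.79 while IMD3 fell by 1.59. PHO2, an activator shared by the purine and the phosphate genes, rose by 1.13. In the pyrimidine list URA10, the minor orotate phosphoribosyltransferase, rose by 2.20, URA8, the minor CTP synthase, by 1.12, and their partners URA5 and URA7 fell by 1.21 and 4.21. FUR1, which salvages uracil, fell by 2.04.

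The signalling genes that set growth to nutrients changed less. Of 31 genes of TOR, protein kinase A and Sch9 signalling and of ribosome gene regulators, 10 were at least 2-fold higher and 3 lower. CRF1, a corepressor of ribosomal protein genes, rose by 2.0, IGO2, a target of the Rim15 kinase, by 1.91, and PDE1, the low-affinity cAMP phosphodiesterase, by 1.57. TPK2 and TPK3, catalytic subunits of protein kinase A, rose by 1.67 and fell by 1.14. IFH1, the coactivator of ribosomal protein genes, fell by 1.41, and TOD6, a repressor of ribosome biogenesis genes, by 2.57. TOD6 is thus lower in the medium in which the biogenesis genes are lower. TOR1 rose by 0.67, and TOR2 by 0.16, a call that was lost under both centring and quantile normalization.

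**Figure D3:**
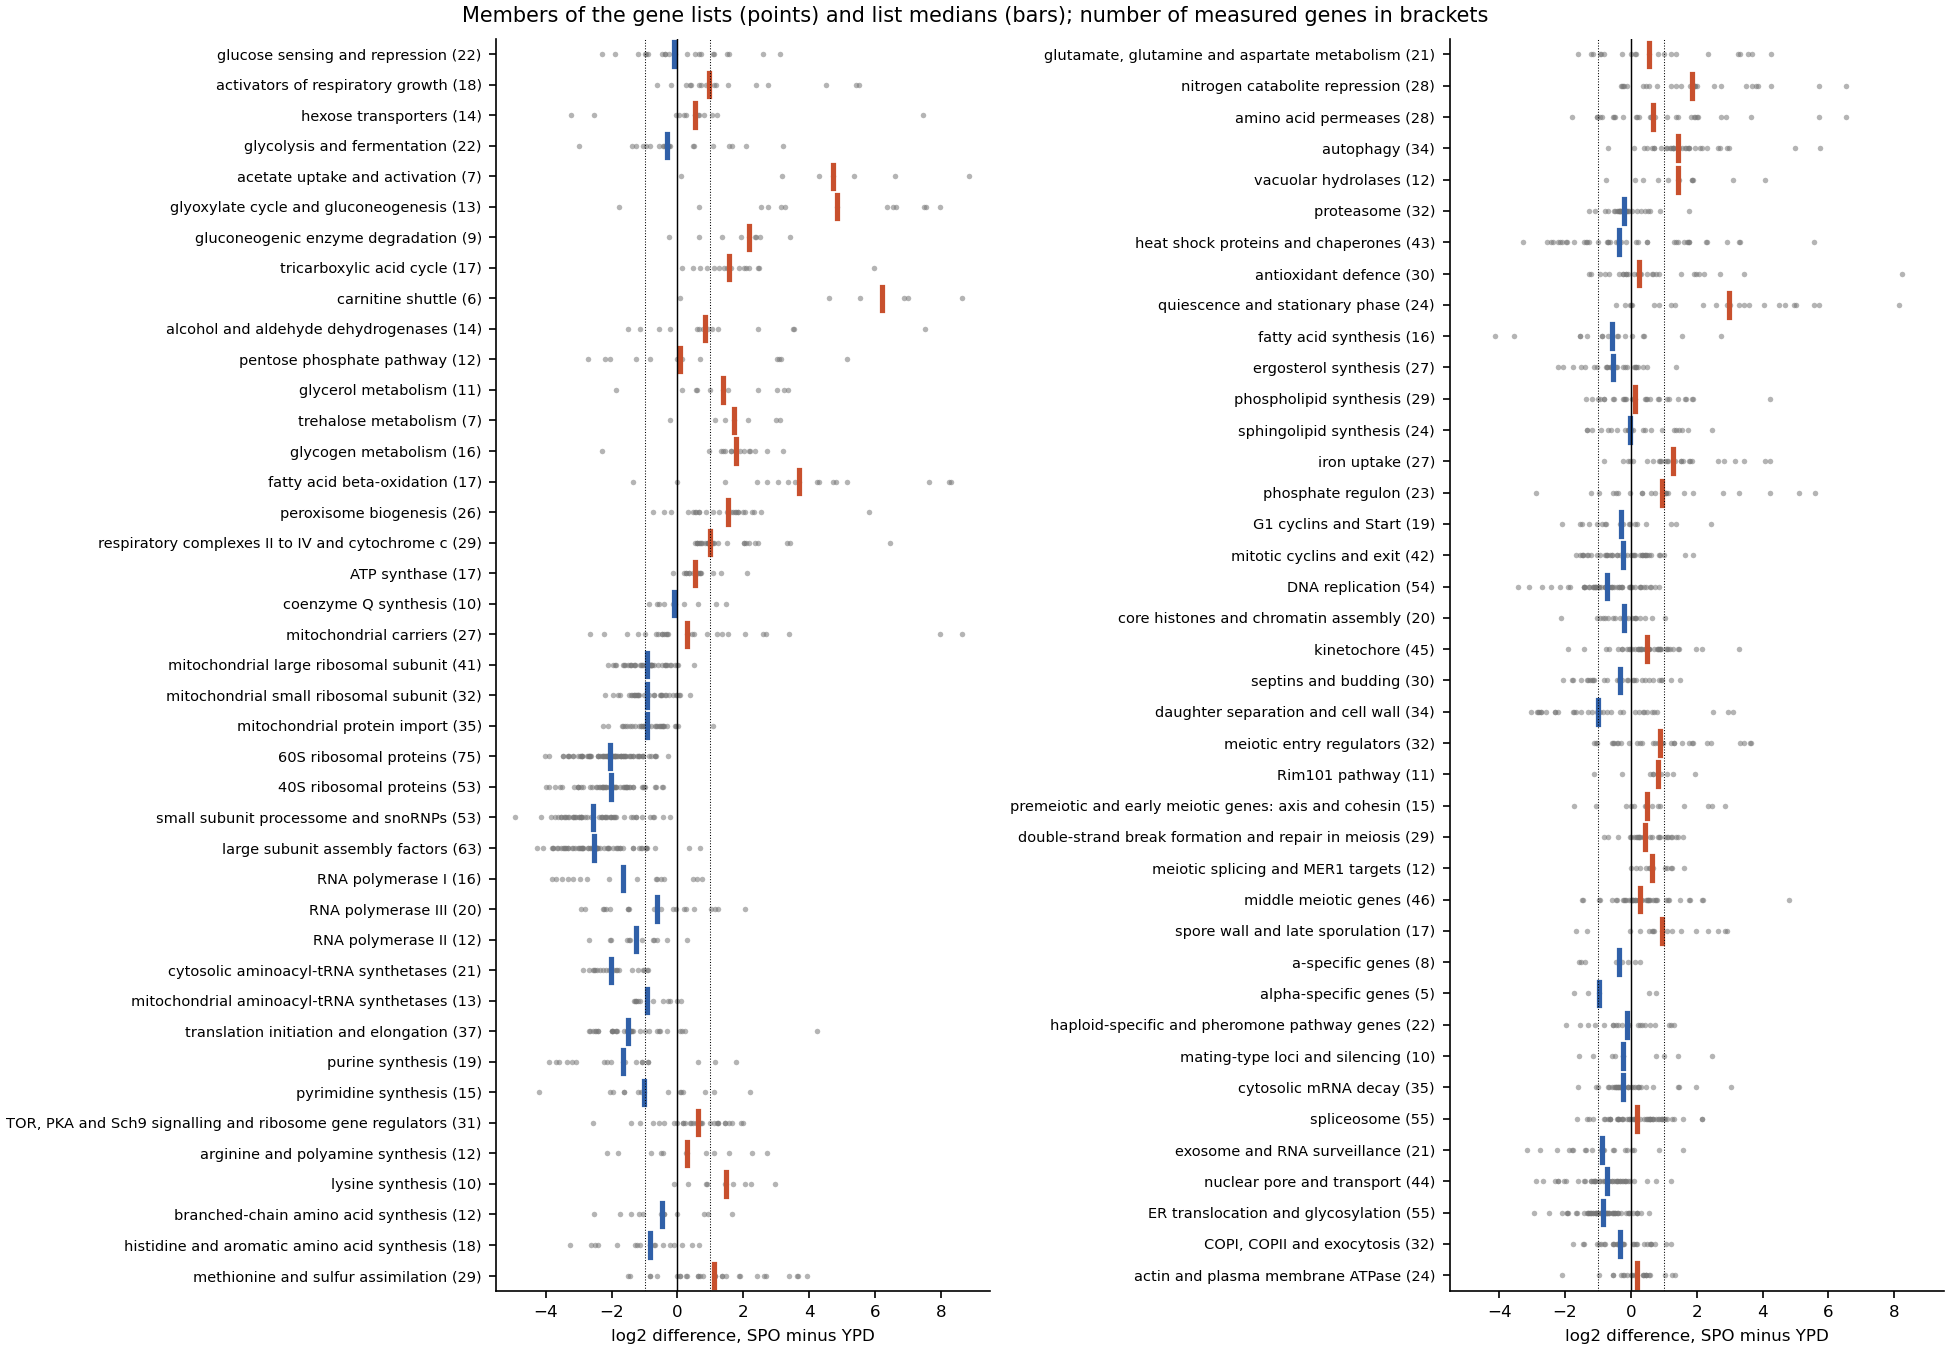
Log2 difference of SPO minus YPD for the measured members of the 81 gene lists (grey points) with the list medians (bars, red above 0 and blue below). The solid line marks no difference and the dotted lines 2-fold. The lists of ribosomal proteins and their assembly lie left of the lower dotted line at their median, and those of acetate, carnitine, the glyoxylate cycle and beta-oxidation farthest to the right.

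Nitrogen genes rose where cells scavenge and divided by pathway where they synthesize. Of 28 genes under nitrogen catabolite repression 19 were at least 2-fold higher and none lower (median 1.87, or 1.68 with its 2 members that left background at their lower bound). GAP1, the general amino acid permease, read 5.11 and 5.2 in YPD and 11.64, 11.69 and 11.76 in SPO, and PUT4, the proline permease, 3.02 and 3.45 and 8.97, 8.92 and 8.98. PUT4 was above background on 1 of its YPD arrays. PUT1 (proline oxidase) and MEP2 (the ammonium permease that also senses ammonium) rose by 4.25 and 3.85. Among amino acid permeases 13 of 28 were at least 2-fold higher and 3 lower, with BAP3 (1.78) and HIP1 (1.03), carriers of branched-chain amino acids and histidine, among the falls. The catabolic genes GDH2 (the NAD-dependent glutamate dehydrogenase) and CAR1 (arginase) rose by 3.68 and 3.56. GDH3, the minor NADP-dependent glutamate dehydrogenase, rose by 3.32, while GDH1, its main relative, did not pass (0.00, adjusted p = 0.948). The genes PRO1, ASN1 and ASN2 of proline and asparagine synthesis fell by 1.62, 1.22 and 1.15.

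Amino acid synthesis did not move as 1 block. For lysine 6 of 10 genes were at least 2-fold higher and none lower, LYS1 (the last step, 2.97), LYS5 (2.24), LYS9 (2.06) and the regulator LYS14 (1.69) among them. For methionine and sulfur 15 of 29 were at least 2-fold higher and 2 lower. The activator gene MET32 read 5.64 and 5.68 in YPD and 9.59, 9.60 and 9.61 in SPO, MMP1 (a methylmethionine permease) and MET2 rose by 3.65 and 3.61, and SAM1, which makes S-adenosylmethionine, fell by 1.44. For histidine and the aromatic amino acids 8 of 18 were at least 2-fold lower and none higher. ARO4, the first enzyme of the aromatic pathway, read 11.11 and 11.17 in YPD and 7.89, 7.84 and 7.89 in SPO, while its relative ARO3 did not pass (0.14, adjusted p = 0.113). ARO7 and HIS1 fell by 2.61 and 2.49. Branched-chain genes had 5 of 12 at least 2-fold lower and 1 higher, LEU9 with a fall of 2.54 and BAT2, the cytosolic aminotransferase, with a rise of 1.66. In the arginine and polyamine list ARG3 and CPA1 rose by 2.72 and 2.27, and the polyamine genes SPE3 and SPE4 fell by 1.81 and 2.15.

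Self-digestion genes were higher almost without exception. Of 34 autophagy genes 26 were at least 2-fold higher, none at least 2-fold lower, and 1 fell. ATG39, a receptor for autophagy of the nuclear envelope, read 4.29 and 4.12 in YPD and 9.90, 10.01 and 9.94 in SPO, and ATG8, the protein that is joined to the growing membrane, 9.03 and 9.0 and 11.94, 12.02 and 12.05. ATG39 was a little above background in YPD, ATG8 far above it, and neither overlapped between the media. ATG34, a receptor for vacuolar enzymes, rose by 2.90, whereas ATG27 fell by 0.69. In the vacuole the mannosidase gene AMS1 rose by 4.08, the proteinases PRB1 and PEP4 by 1.85 and 1.43, and the ATPase subunit gene VPH1 fell by 0.77.

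The proteasome behaved otherwise. Of 32 genes 22 fell, but only 2 at least 2-fold, PUP1 (1.27) and PRE9 (1.09), both of the core particle. RPN4, the activator of proteasome genes, was the 1 gene at least 2-fold higher (1.77). The list thus had a median of -0.21 beside a rise of its activator.

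Of 43 genes of heat shock proteins and chaperones 14 were at least 2-fold higher and 15 lower, above the background shares in both directions. HSP26, a small heat shock protein, read 6.02 and 5.98 in YPD and 11.49, 11.58 and 11.56 in SPO, and SSA4, an inducible Hsp70, 7.88 and 8.09 and 11.13, 11.36 and 11.41. HSP12 and SSA3 rose by 3.27 and 2.91. SSB2, an Hsp70 at the ribosome, read 12.19 and 12.14 in YPD and 9.0, 8.82 and 8.85 in SPO. SSZ1, an atypical Hsp70 that acts with it there, fell by 2.43, and YDJ1, an Hsp40 of the cytosolic Ssa proteins, by 2.54. Of the stationary phase list 17 of 24 genes were at least 2-fold higher and none lower, led after SPG4 by SPG1 (5.71) and PHM7 (5.03). In antioxidant defence 8 of 30 were at least 2-fold higher (26.7%, against 22.1% of all sets). CTT1 (cytosolic catalase) rose by 3.43 and GTT2 (glutathione transferase) by 2.72, and TRX1 and GPX2 fell by 1.2 and 1.28.

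Of 16 fatty acid synthesis genes 5 were at least 2-fold lower and 2 higher, and of 29 phospholipid genes 2 were lower and 8 higher. Both long-chain elongase genes fell, ELO2 by 4.12 and ELO3 by 3.55, while ELO1, which elongates medium chains, rose by 1.55. FAS1, a fatty acid synthase subunit, fell by 1.54 and FAS2 by 0.38. Of 27 ergosterol genes 7 were at least 2-fold lower (near the background share) and 1 higher, ERG3 and ERG24 with falls of 2.20 and 2.05 and the activator ECM22 with a rise of 1.38. INO1, which makes inositol phosphate, read 5.19 and 5.08 in YPD and 9.32, 9.37 and 9.39 in SPO. INO4 and INO2, which form its activator, rose by 1.87 and fell by 0.93. PAH1 and NEM1, which turn phosphatidate towards storage fat, rose by 1.84 and 1.67. In sphingolipid synthesis 6 of 24 genes were at least 2-fold higher and 3 lower. YPC1, a ceramidase, and ORM2, a regulator of the first enzyme, rose by 1.74 and 1.54, and LCB1, a subunit of that enzyme, fell by 1.34.

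Metal and phosphate uptake genes were higher. Of 27 iron genes 17 were at least 2-fold higher and none lower, with the cell wall mannoproteins FIT2 (4.66 and 4.93 in YPD, 9.0, 8.97 and 9.07 in SPO) and FIT3 (4.07), the siderophore transporter ARN2 (3.43) and the haem oxygenase HMX1 (3.16) in front. The 17 include FRE5 by its fitted difference of 1.27. It was at background on both YPD arrays, and its lower bound is 1.22-fold. The high-affinity iron permease gene FTR1 fell by 0.22, and FRE1, a surface reductase, by 0.83. The phosphate list had 11 of 23 genes at least 2-fold higher and 2 lower. PHO89, a sodium and phosphate symporter, read 4.88 and 5.09 in YPD and 10.61, 10.52 and 10.57 in SPO. PHO84, the high-affinity transporter, rose by 4.22, and SPL2, which restrains the low-affinity ones, by 5.12. The low-affinity transporter gene PHO90 fell by 1.21. PHO3, an acid phosphatase of phosphate-rich cells, read 10.02 and 10.05 in YPD and 7.21, 7.13 and 7.13 in SPO.

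Genes of the mitotic cycle moved in both directions. Of 19 genes of G1 cyclins and Start 5 were at least 2-fold lower and 3 higher. These shares, 26.3% and 15.8%, stand beside 21.1% and 22.1% of all sets. CLN2 and CLN1, G1 cyclins, fell by 2.10 and 1.5. CLN2 read 7.08 and 7.11 in YPD and 4.87, 4.85 and 5.27 in SPO. XBP1, a repressor of CLN1 that starvation induces, read 3.49 and 3.67 and 5.95, 5.96 and 6.11, and the Cdk inhibitor SIC1 rose by 1.23. PCL1, another G1 cyclin, was at background on all 3 SPO arrays (at least 2.19-fold lower).

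Of 54 DNA replication genes 20 were at least 2-fold lower and none higher (median -0.73). RNR1, the large subunit of ribonucleotide reductase, read 8.77 and 8.77 in YPD and 5.41, 5.38 and 5.27 in SPO. CDC21 (thymidylate synthase) and POL30 (the sliding clamp) fell by 3.10 and 2.70. RNR3, the DNA damage-inducible large subunit, rose by 0.85, and SLD2, an initiation factor, by 0.73. Of 20 genes of histones and chromatin assembly 2 were at least 2-fold lower, ASF1 (a histone chaperone, 2.12) and HHO1 (linker histone, 1.03), and 1 higher, SPT10 (1.03). Both shares were under the background. In the list of mitotic cyclins and exit 9 of 42 genes were at least 2-fold lower, near the background share, and 2 higher. The median of this list turned positive without the dimmest 25% of sets. SWI5 and FKH1, transcription factors of late mitosis and of G2, fell by 1.65 and 1.56, and CDC5, the Polo kinase, by 1.48. APC9, an anaphase-promoting complex subunit, and MIH1, the phosphatase that activates Cdc28, rose by 1.89 and 1.63.

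Of 45 kinetochore genes 10 were at least 2-fold higher, as large a share as of all sets, and 2 lower. CTF19, a gene of the inner kinetochore, left background (2.68 and 2.93 in YPD and 5.97, 6.09 and 6.20 in SPO, at least 7.18-fold). The next largest rises were NKP1 (2.15), CHL4 (1.97) and CEP3 (1.47), and DUO1 of the Dam1 complex fell by 1.89. Genes of budding and daughter separation were lower. Of 34 cell wall and separation genes 17 were at least 2-fold lower and 3 higher. SCW10 and CWP2, wall proteins, fell by 3.03 and 2.86, and DSE4, a glucanase of daughter cells, by 2.83. SPI1 and TIP1, wall proteins of stress and stationary phase, rose by 3.10 and 2.96. Of 30 septin and budding genes 10 were at least 2-fold lower, CYK3 and CHS2 of the division septum by 2.06 and 1.79, and the sporulation septin SPR3 rose by 1.5.

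The regulators of meiotic entry were higher as a group, with 13 of 32 genes at least 2-fold higher and 3 lower (median 0.87). IME1, the master activator, read 5.0 and 4.98 in YPD and 8.62, 8.55 and 8.71 in SPO, and IME2, the kinase it activates, 5.33 and 5.27 and 8.57, 8.66 and 8.59. Both genes were above background in YPD and rose 12.4- and 9.88-fold. SLZ1, a component of the m6A methyltransferase complex, read 3.61 and 3.61 and 7.01, 7.08 and 7.04, and IME4, its catalytic subunit, 5.35 and 5.35 and 7.14, 7.13 and 7.10. PHO92, which binds m6A, was at background in YPD and read 6.36, 6.52 and 6.51 in SPO. RIM4, an RNA-binding repressor of translation in meiosis, rose by 2.44. RME1, a repressor of IME1, rose too, by 1.32. UME6, the factor through which Ime1 acts, read 8.10 and 8.0 and 8.35, 8.20 and 8.14, a rise of 0.18 (adjusted p = 0.0238). Median centring lowers the differences by 0.10, and the call of UME6 under other scalings was not examined. TUP1, UME1 and YHP1, members of repressing complexes, fell by 1.05, 1.13 and 1.03. In the Rim101 pathway, which responds to alkaline pH, 3 of 11 genes were at least 2-fold higher, RIM9 by 1.95 with 1 of 2 YPD arrays above background, and SMP1, which Rim101 represses, fell by 1.12.

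The early meiotic genes were higher in part and from low levels. Of 15 genes of the chromosome axis and cohesin 4 were at least 2-fold higher and 2 lower, near the background shares. CSM4, which links telomeres to motor forces, read 3.28 and 3.79 in YPD and 6.39, 6.48 and 6.30 in SPO. MEK1, the meiotic recombination checkpoint kinase, left background (2.89 and 2.46 and 5.10, 4.90 and 5.01, at least 3.39-fold). REC8, the meiotic cohesin subunit, and HOP1, an axis protein, differed by 0.64 and 0.42, signs that turned negative with quantile normalization. The axis gene RED1 did not pass (0.09, adjusted p = 0.343), and SPO13 was at background on all 5 arrays. SMC3, a cohesin subunit that mitotic cells use as well, fell by 1.72. In break formation and repair 8 of 29 genes were at least 2-fold higher (27.6%, against 22.1% of all sets) and none lower. SPO11, the nuclease of meiotic breaks, read 3.22 and 3.0 and 4.39, 4.61 and 4.6, with 1 YPD array above background, and DMC1, the meiotic recombinase, 5.04 and 4.74 and 6.19, 6.16 and 6.09. MLH3 and REC102 rose by 1.59 and 1.37 (REC102 with 1 of 2 YPD arrays above background), and RAD52, used in mitotic repair too, fell by 0.81. HOP2 and SAE3 were at background on all 5 arrays. Of 12 genes of meiotic splicing and its targets 5 were at least 2-fold higher, PCH2 (1.63), DMC1, MEI4 (1.22), MND1 (1.09, a call lost with quantile normalization) and REC107 (1.03). PCH2 and MND1 had 1 of 2 YPD arrays above background, and the splicing factor gene MER1 was at background on both YPD arrays (at least 1.53-fold higher in SPO, a direction that turned with quantile normalization). Since these levels lay close to background, their folds rest on few units of intensity.

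The middle genes were mixed. NDT80 read 3.45 and 3.89 in YPD and 4.20, 3.82 and 3.82 in SPO, with overlapping groups, and did not pass (adjusted p = 0.226). Of 46 middle genes 9 were at least 2-fold higher and 2 lower, shares of 19.6% and 4.3%, both under the background. The median was 0.27, a sign that turned with quantile normalization. SMA1 and OSW1, genes of the prospore membrane and spore wall, left background (at least 3.42- and 3.98-fold), DON1 rose by 1.79, and SPS19, listed here as well, acts in beta-oxidation. CDC5 and CLB6, which vegetative cells also use, fell by 1.48 and 1.46. Among 17 genes of spore wall and late sporulation 8 were at least 2-fold higher and 2 lower. RRT8, a lipid droplet protein of spore wall assembly, read 7.32 and 7.23 in YPD and 10.17, 10.17 and 10.25 in SPO, and SPS100 4.19 and 4.34 and 7.17, 7.06 and 7.12. SHC1, an activator of chitin synthase in spores, rose by 2.65, and SPO19 was at background on all 3 SPO arrays (at least 1.97-fold lower). The median of this list, 0.93, or 0.70 with 3 members at their bound, was no longer above 0 without the dimmest 25% of sets, which leaves out most of its members.

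**Figure D4:**
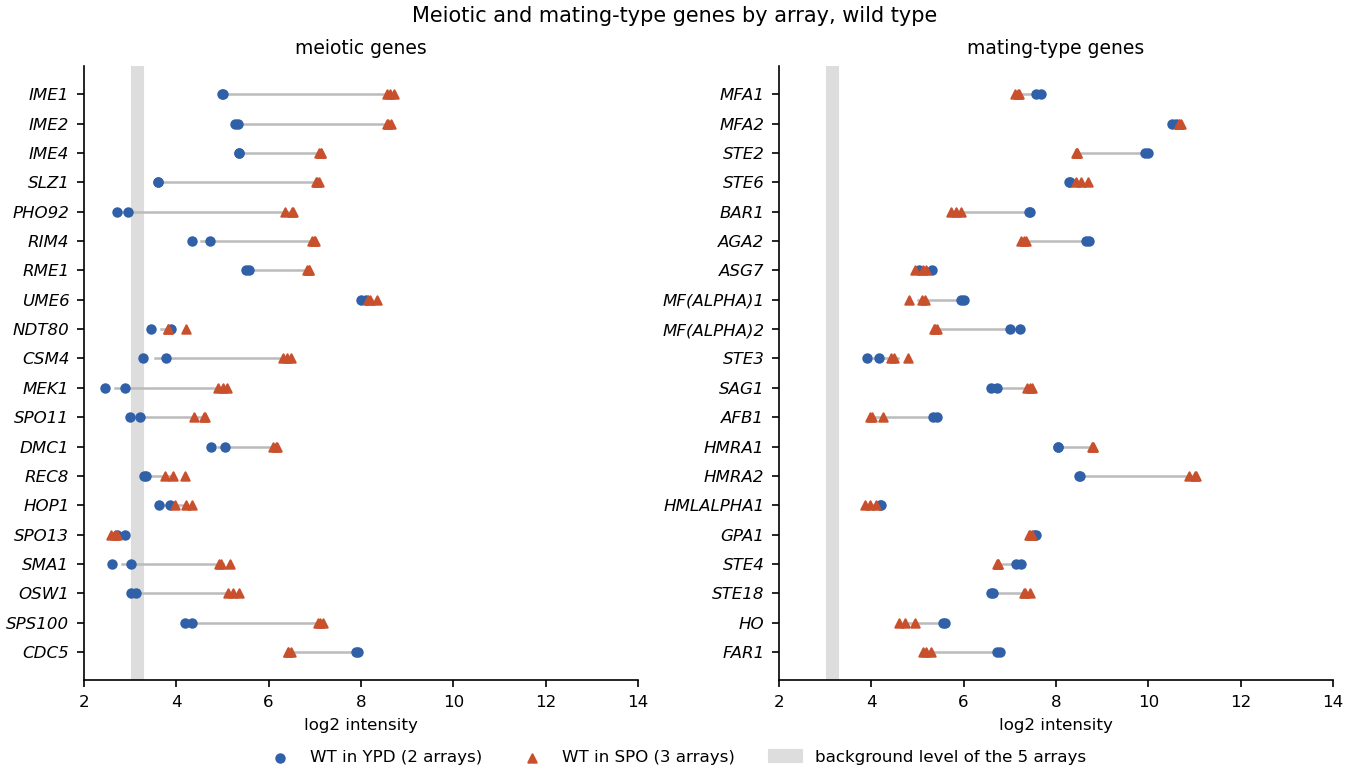
Log2 intensity of 20 meiotic genes (left) and 20 mating-type genes (right) on each wild-type array, drawn as for the leading genes. IME1, IME2 and SLZ1 separate by over 3 units, the NDT80 arrays overlap, and SPO13 stays at background. The REC8, HOP1 and STE3 differences change sign with quantile normalization.

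The labels give no mating type, and the marker genes were read for that reason. Markers of a cells were well above background on every wild-type array. MFA2, an a-factor gene, read 10.60 and 10.51 in YPD and 10.65, 10.71 and 10.67 in SPO, and STE2, the alpha-factor receptor, 9.98 and 9.92 and 8.42, 8.46 and 8.46. MFA1 and STE6 (the a-factor exporter) lay between 7.12 and 8.69. Alpha markers were above background as well, with MF(ALPHA)1 at 6.01 and 5.93 and 5.09, 4.82 and 5.16 and STE3, the a-factor receptor, at 4.16 and 3.92 and 4.80, 4.50 and 4.43. HMRA1, which reads a1, was at 8.03 and 8.04 in YPD and 8.80, 8.77 and 8.81 in SPO, and HMLALPHA1, which reads alpha1, at 4.21 and 4.19 and 4.10, 3.96 and 3.86. Probe sets differ in their response, so these levels do not rank the genes against each other. On the ime4-/- YPD arrays the same probe sets read 1.93 and 1.63 for HMRA1 and 8.91 and 8.91 for HMLALPHA1. The wild-type signal of HMLALPHA1 was thus far below the level that its probe set reached there, and that of HMRA1 far above. The G protein genes GPA1, STE4 and STE18, which cells with both mating types repress, lay between 6.60 and 7.56 on all 5 arrays. Every marker named here was above background on all 5 arrays.

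Between the media the mating genes moved in both directions. STE2, BAR1 (the protease that destroys alpha-factor) and AGA2 (an a agglutinin subunit) fell by 1.51, 1.59 and 1.39. MF(ALPHA)2 and AFB1 fell by 1.72 and 1.29, and SAG1, the alpha agglutinin, rose by 0.77. STE3 differed by 0.54, a sign that turned with quantile normalization. HMRA1 rose by 0.75 and HMRA2, whose sequence is shared with the end of the alpha2 gene, by 2.45. The probe sets of HMRA2 and HMLALPHA1 are among those marked as matching more than 1 sequence, as are those of HXT17 and IMD2. FAR1, which arrests the cycle in pheromone, fell by 1.55, and HO, the endonuclease of mating-type switching, by 0.82. The silencing genes SIR1 and SIR2 rose by 1.44 and 1.00, and SIR3 fell by 0.49.

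Among genes of RNA handling and secretion the lists of the exosome, of nuclear transport and of entry into the endoplasmic reticulum had shares of lower genes above the background, and mRNA decay and the spliceosome did not. Of 35 mRNA decay genes 4 were at least 2-fold higher and 3 lower, EDC2 and EDC1, activators of decapping, by 3.04 and 1.98, and LSM1 of the decapping complex fell by 1.61. Of 55 spliceosome genes 8 were at least 2-fold higher and 4 lower, with SMD2 (2.17) and MUD1 (2.15) at one end and PRP43 (a helicase that also acts on ribosomes, 1.62 lower) at the other. In the exosome list 9 of 21 were at least 2-fold lower and 1 higher. The helicase gene MTR4 read 7.79 and 7.69 in YPD and 4.99, 4.37 and 4.39 in SPO, and AIR1 fell by 2.75 while its relative AIR2 rose by 1.58. Nuclear transport had 17 of 44 at least 2-fold lower. KAP123, the importin of ribosomal proteins, read 9.87 and 9.84 and 6.97, 6.98 and 6.96, and SXM1, another importin, fell by 2.67. Of 55 genes of translocation into the endoplasmic reticulum and glycosylation 23 were at least 2-fold lower and none higher, PMT4 (O-mannosylation) by 2.93 and SEC53 (phosphomannomutase) by 2.48. Vesicle transport (2 of 32 at least 2-fold higher, 4 lower) and the actin list (3 and 1 of 24) stayed under the background shares, SSO2, a plasma membrane syntaxin, with a fall of 1.76 and MYO3, a myosin, with a rise of 1.35.

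Pairs of isozymes and paralogs were read side by side, each by its own difference between the media. Of 80 pairs 73 had both genes measured. In 36 pairs 1 gene rose and the other fell, in 14 of them both by at least 2-fold. In 20 pairs both rose, in 10 both fell, and in 7 at least 1 gene did not pass. With 46.9% of all sets risen and 43.1% fallen, opposite calls are also frequent between genes that are not paralogs, and nothing is read from the count. The median gap between the members was 2.37 log2. The widest gap was between ADH2, which read 5.75 and 5.32 in YPD and 13.03, 13.02 and 13.07 in SPO, and ADH1, which read 13.34 and 13.28 and 13.04, 13.12 and 13.08. The difference of ADH1, -0.23, lost its call with quantile normalization (-0.02). Wide gaps also lay between IDP2 and IDP1 (6.55 and 0.46), CTA1 and CTT1 (8.23 and 3.43) and MDH2 and MDH1 (4.85 and 1.27), where both members rose.

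The 14 pairs that crossed by at least 2-fold each way reached from sugar phosphates to membranes. In the cell wall FKS1, the glucan synthase of growing cells, read 10.54 and 10.49 in YPD and 8.29, 8.37 and 8.26 in SPO, and GSC2, its relative in spores and stress, 6.20 and 6.15 and 8.73, 8.67 and 8.61. The media did not overlap for either gene, and their order in level is not read because the probe sets differ. The Ran GTPase genes GSP1 and GSP2 changed by -2.21 and 1.22, and the proton pump genes PMA1 and PMA2 by -2.09 and 1.26. Acyl-CoA synthetase genes FAA4 and FAA1 changed by -1.35 and 2.73, and sterol acyltransferase genes ARE1 and ARE2 by -1.16 and 1.42. MTH1 and STD1, paralogs in glucose signalling, changed by 1.06 and -2.30. The others of this kind were PGM1 and PGM2, GND1 and GND2, SOL3 and SOL4, URA7 and URA8, URA5 and URA10, IMD3 and IMD2, TPK3 and TPK2, and YEF3 and HEF3, given above. Pairs that moved alike included GSY1 and GSY2, LYS20 and LYS21 (1.45 and 1.47) and the G1 cyclins CLN1 and CLN2. Paralogs with near-identical sequence could share signal, which would narrow such a gap, and this was not tested.

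**Figure D5:**
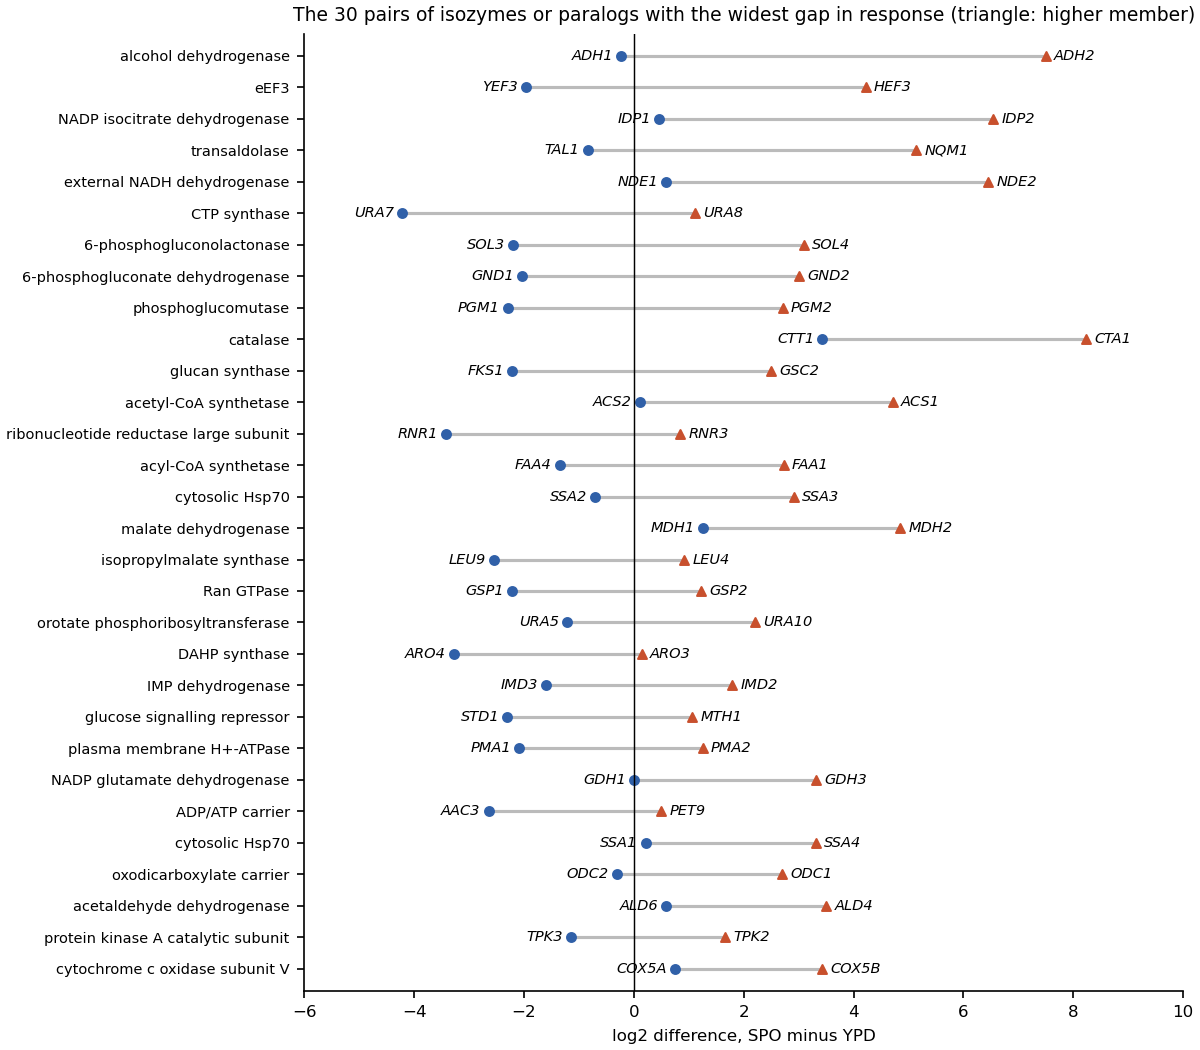
Log2 difference of SPO minus YPD for both members of the 30 pairs with the widest gap, the lower member as a circle and the higher as a triangle, with the shared function on the vertical axis. ADH1 and ADH2 are farthest apart, and in most pairs the lower member lies left of 0 or close to it.

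A set of genes passed the background level in SPO only. On both YPD arrays 168 tested sets were at background, and 64 of these lay above it on all 3 SPO arrays, of which 62 rose. The opposite, above background on both YPD arrays and at background on all 3 SPO arrays, was seen for 4 sets. The background level was higher on the YPD arrays (3.22 and 3.27) than on the SPO arrays (3.09, 3.04 and 3.04). A set with equal signal in both media could thus be counted among the 64, and the 2 counts are not compared. Some of the 62 lay barely above the level in SPO, such as GAS4 (3.14, 3.07 and 3.09). The signs of MER1, HES1 and LOH1, also among them, turned with quantile normalization. On all 5 arrays 79 sets were at background, for which no direction can be read. The largest lower bounds among the 62 after RGI2, POX1 and ATG36 were those of PHO92 and CTF19 (at least 9.33- and 7.18-fold), followed by GAT3, a GATA-family gene, and YLR415C (at least 7.04- and 6.40-fold), both named after their values were seen, and by STL1 (at least 6.07-fold). GAT3 (YLR013W) and the leading gene YLR012C have consecutive systematic names.

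The place of a gene on its chromosome and its naming went with its response. Of 367 measured genes among the outermost 15 at each chromosome end, 35.7% were at least 2-fold higher and 9.8% lower, against 21.2% and 21.7% of the other 4944. Of 487 genes with a systematic name only, 33.5% were at least 2-fold higher and 9.4% lower, against 21.0% and 22.1% of 4824 named ones, and 83 genes belonged to both classes. The higher shares for both classes remained at 27.7% to 34.2% with quantile normalization, with median centring and without the dimmest 25% of sets. Among the genes near the ends 54 were read by a probe set that is marked as shared with other sequences, and the part of such sets in the shares was not tested. Of 4762 pairs of neighbouring genes 1043 had a first gene that was at least 2-fold higher, and in 311 of these (29.8%) the second was too, against 22.2% of all genes. For lower genes it was 285 of 1009 (28.2%), against 20.9%. In 336 pairs 1 neighbour was at least 2-fold higher and the other at least 2-fold lower. These are counts over genes, which are not independent, and no test was made.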

How the data were processed

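Per the submitters' processing notes the authors summarised the arrays with RMA, which subtracts background, brings arrays to a common distribution and joins the probes of a set, and the deposited values are linear intensities, 1 per probe set and array. The sources used here do not give the software. Log2 of the deposited intensity was taken with no offset. Names came from the platform annotation given with the data, in which 6772 probe sets have 1 gene name or more and 2904 have none. Of these, 1413 belong to another yeast species and served as background (95th percentile per array), and 12 symbols were updated through RefSeq. The 5359 S. cerevisiae sets were fitted with limma 3.58.1 in R 4.3.3 (lmFit and eBayes) on all 9 arrays in 4 groups, with no filter on low values, and tested on simulated data. Where a gene had several sets, the brightest over the 9 arrays was used, and 126 sets carry a suffix for probes that match more than 1 sequence. Folds against a group at background are lower bounds, computed against the background level.

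The members, the 81 gene lists and the 80 paralog pairs were chosen with earlier results of these data known. Named are the 15 largest rises and falls without overlap, the members of lists of at most 20 genes, the 4 largest rises and falls of longer lists, the marker genes of mating type and the pairs, and IME4, NDT80, RIM4, UME6, GAT3 and YLR415C were added after their values were seen. Chromosome ends, naming and neighbours were read from the gene order of RefSeq. A motif search in promoters was not run, as no promoter sequences were used here. The labels do not say whether the biological replicates came from separate cultures, so p-values measure only the spread between these arrays, and 5 arrays limit the precision.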

Additional observations from a re-analysis of the deposited data

Results flagged for a closer look

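The response of 29 of the 30 leading genes differed between wild-type and ime4-/- cells in limma's interaction test, adjusted over all probe sets. In each of the 29 the fitted ime4-/- response was smaller in size, with 2 arrays in each medium. The 30 genes were chosen for the size of their wild-type response, and the interaction uses the same wild-type arrays, so that a smaller response in the other genotype is favoured by the choice and is given as a description. Over all 5359 sets 64.1% passed the interaction test, in either direction. Of the sets at least 2-fold higher in wild type 69.1% passed it with the opposite sign, and of those at least 2-fold lower 74.9%. A smaller response in ime4-/- cells was thus not particular to the leading genes. Given as the ime4-/- response minus the wild-type response in log2, the rises differed by -3.28 for ADH2 (adjusted p = 4.79e-07), -2.27 for FDH1, -2.00 for SFC1, -1.75 for ADY2 (adjusted p = 2.22e-06), -1.66 for MLS1, -1.47 for ICL1, -1.32 for CRC1, -1.31 for SPG4, -1.28 for HXT5, -0.96 for REG2, -0.94 for POX1, -0.82 for CTA1, -0.57 for YLR012C and -0.31 for POT1 (adjusted p = 0.00562). The remaining gene was RGI2 with -0.44 (adjusted p = 0.0745). RGI2 and POX1 were at background on both wild-type YPD arrays, so their responses are lower bounds, and neither their fitted differences nor their side of the threshold can be read as measured. Among the falls the differences were 1.78 for SNU13, 1.77 for NOP1 (adjusted p = 4.09e-07), 1.59 for INA1, 1.42 for ELO2, 1.28 for RMT2, 1.26 for NSR1, 1.26 for RLP24, 1.12 for URA7, 1.07 for NIP7, 1.00 for NOP13, 0.94 for RPS9A, 0.92 for RPL6B, 0.92 for RPL13A, 0.69 for AAH1 and 0.67 for RPS0B. The adjusted p of the 29 lay between 3.19e-07 (MLS1) and 0.00562.

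The genotypes also differed in mating-type transcripts. HMRA1 read 8.03 and 8.04 on the wild-type YPD arrays and 1.93 and 1.63 on those of ime4-/-. HMLALPHA1 read 4.21 and 4.19 against 8.91 and 8.91. The deletion and this difference in mating-type transcripts cannot be told apart in these arrays.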

How the results depend on the processing

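The counts at least 2-fold higher and lower stayed within 1.5 times of 1183 and 1133 under every alternative run, with 852 and 928 without the dimmest 25% of sets, 998 and 1042 with an offset of 16 added to the intensity, 1063 and 1240 with centring on the array medians and 1070 and 1177 with quantile normalization. With 1 array left out they ran from 1178 to 1185 and from 1126 to 1135. The sets that rose and fell then ran from 2432 to 2484 and from 2222 to 2292. Where 1 YPD array was left out, the other was assumed to vary like the remaining groups. Median centring lowered the differences by 0.10 (median shift -0.1025, quantile normalization -0.0976), and gave 2331 sets that rose and 2492 that fell, against 2340 and 2478 with quantile normalization. The replicate numbers did not pair the arrays (r = 0.0314 and 0.0043 between the deviations of the same number), and the fit with the replicate number as a block gave 1185 and 1134 sets at least 2-fold higher and lower. Of 869 genes named as leading genes, list members or pairs 811 passed, and 779 of the 869 had the same call under every alternative run. The genes added after their values were seen, and mating-type markers that these rules did not pick, were not among the 869.

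Quantile normalization turned the sign of AMA1 (-0.2667), ATP19 (0.0180), DFG16 (-0.2228), GAL2 (-0.1131), HES1 (-0.0659), HFM1 (-0.5273), HOP1 (-0.3845), HTA2 (0.2402), HXT8 (-0.0022), LEU2 (0.1375), LOH1 (-0.2048), MER1 (-0.0130), PDC6 (-0.0824), PPE1 (-0.3521), REC8 (-0.1270), RED1 (-0.2822), SNO3 (-0.2557), SSE1 (0.0677), STE3 (-0.1753), URA3 (-0.3888) and WHI5 (-0.4483), and of the middle meiotic median (-0.0440). Median centring turned the pentose phosphate median (-0.0364). Leaving out the dimmest 25% of sets, and so the dim members of each list, turned the medians of the pentose phosphate pathway (-0.0002), mitotic cyclins and exit (0.3289), histones and chromatin assembly (0.0349), spore wall (-0.0128) and mating-type loci (0.3860). For the other changes of sign the cause was not tested. The shares by chromosome end and naming were recomputed under settings chosen after seeing the data. Genes within a few units of background, which include most early and middle meiotic genes, have the least certain folds.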
